A study of Homo sapiens with 519 samples.

Results

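Teniposide was present under 2 labels in a compound screen on the human neuroblastoma line SK-N-BE(2), which carries an amplified MYCN gene. TENIPOSIDE, labelled with concentration 3, had 2 wells, and NSC122819, labelled 7.5, had 2 wells; NSC122819 is the number that the United States National Cancer Institute gave to teniposide. These 4 wells were chosen by their labels, out of 519 libraries of the whole series, and only the first experiment of the series is used here. The labels state no unit for either concentration, so label, stock and concentration cannot be told apart in any difference between the TENIPOSIDE and NSC122819 wells. In that experiment 90 compounds were each placed at random on duplicate plates, at a low inhibitory concentration set for each, and RNA was taken after 24 h. Every well of the groups used here held the same line in 0.1% DMSO, and the groups were TENIPOSIDE 3, NSC122819 7.5, AMSACRINE 3, DOXORUBICIN 3, DAUNORUBICIN 3 and Podofilox 2 (2 wells each, 1 on plate 1 and 1 on plate 2) and 8 DMSO wells, 4 on each plate. The protocol describes 6 DMSO wells a plate, whereas the labels name 4 of them on each plate and 4 further wells in all as being without DMSO; the labels were followed. The model is a single cell line at a single time and a single concentration of each label.

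Teniposide is a semisynthetic glycoside of the podophyllotoxin class. It does not act on tubulin as podophyllotoxin does, but on topoisomerase II, the enzyme that cuts both strands of DNA, passes another DNA segment through the gap and seals it again. The drug holds the enzyme in the cut state, so that the enzyme stays bound to the broken ends, and cells answer such breaks by activating the checkpoint kinases ATM and ATR, stopping in S phase and G2, and switching on damage-induced genes such as CDKN1A. Amsacrine, an acridine derivative, and the anthracyclines doxorubicin and daunorubicin are topoisomerase II poisons of other structures that also intercalate into DNA, and podofilox is podophyllotoxin itself, which binds tubulin. The comparisons below ask what teniposide wells showed beside DMSO wells, how far the labels TENIPOSIDE and NSC122819 gave the same profile, and how TENIPOSIDE differed from the other poisons at the same labelled concentration.

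RNA was measured by PLATE-Seq, a pooled 3′-end sequencing method for polyadenylated RNA, and deposited as read counts per gene. Total counts were 1436503 and 1083170 in the TENIPOSIDE wells, 1625507 and 1312396 in the NSC122819 wells and 1683983 to 2607422 in the DMSO wells, within a range of 38670 to 3958909 over the experiment. Genes detected numbered 14117 and 12944 in the TENIPOSIDE wells, 15327 and 14563 in the NSC122819 wells and 12496 to 13737 in the DMSO wells. The NSC122819 wells thus held more detected genes than any DMSO well, at lower total counts. The mitochondrially encoded share was 24.4 to 25.2% for TENIPOSIDE, 27.1 to 27.2% for NSC122819 and 24.3 to 29% for DMSO. Spike-in reads (ERCC, synthetic RNAs added to a sample) numbered 10 and 20 in the TENIPOSIDE wells and 1683 and 1696 in the NSC122819 wells. Over the experiment 97 wells had more than 100 such reads and 95 had fewer, 2 of the DMSO wells were in the first group and 6 in the second, and AMSACRINE, DOXORUBICIN, DAUNORUBICIN and Podofilox wells were all in the first. Spike-in status and label thus cannot be told apart where TENIPOSIDE is set against NSC122819, AMSACRINE, DOXORUBICIN or DAUNORUBICIN. The adrenergic neuroblastoma markers HAND2, GATA3, TH and CHGA were detected in all wells of these groups, DBH was near 0, and 16 markers of blood, endothelial, epithelial, fibroblast and liver cells summed to 375 to 486 CPM (a gene's count as a share of the library total, scaled between libraries) in TENIPOSIDE wells, 393 to 491 CPM in NSC122819 wells and 461 to 640 CPM in DMSO wells. Of these 16 markers CD68 and PRRX1 were at 0 in every well of all 3 groups.

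Both labels changed the expression of many genes. A gene was called where the Benjamini-Hochberg adjusted p of edgeR's quasi-likelihood test was under 0.05 over the 13438 genes tested, with the plate as a block. TENIPOSIDE against DMSO gave 1034 called genes (7.69% of those tested), of which 518 rose (3.85%) and 516 fell (3.84%). NSC122819 against DMSO gave 1930 (14.4%), of which 1021 rose (7.6%) and 909 fell (6.76%). For the mean of both labels, 4 wells against 8, 2530 genes passed (18.8%), with 1206 rises (8.97%) and 1324 falls (9.85%), and 1552 of them differed at least 2-fold. The counts depended on single wells: they were 304 and 324 without the TENIPOSIDE well of plate 1 or plate 2, 843 and 897 without the NSC122819 well of plate 1 or plate 2, and 1578 for the mean without the TENIPOSIDE well of plate 1. A well of 1 plate was in each case assumed to vary like the others. The larger count for NSC122819 was obtained at another labelled concentration and says nothing by itself of a difference between the labels, which was tested directly further on. Since the wells hold whole cell populations, fewer cells of a state and less RNA per cell cannot be told apart in any value below.

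**Figure D1:**
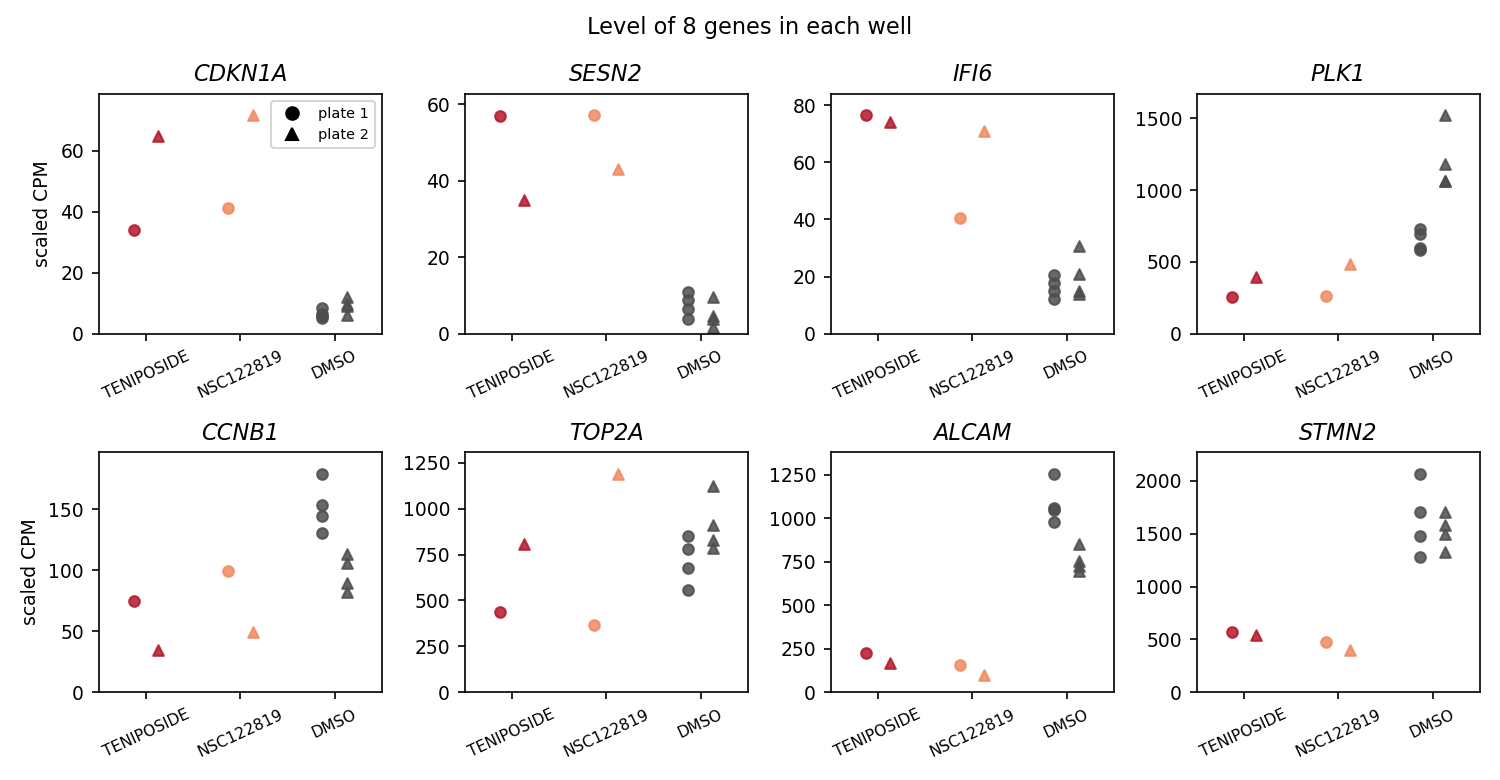
Scaled CPM of 8 genes by well, on a linear axis that starts at 0 and has its own range for each gene, with TENIPOSIDE, NSC122819 and DMSO wells side by side; each point is 1 well, circles are plate 1 and triangles plate 2. CDKN1A, SESN2 and IFI6 lie above all DMSO wells in the 4 teniposide wells, PLK1, ALCAM and STMN2 lie below them, CCNB1 lies below the DMSO wells of its own plate, and TOP2A overlaps with them.

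Among genes known to be induced by DNA damage, CDKN1A, the inhibitor of cyclin-dependent kinases known as p21, had 34.1 and 64.7 CPM in the TENIPOSIDE wells of plates 1 and 2 and 41.1 and 71.5 CPM in the NSC122819 wells, against 5.19 to 11.9 CPM (median 7.45) in DMSO wells. All 4 teniposide wells lay above all 8 DMSO wells, and the log2 change of the mean was 2.69 ± 0.30 (SE; adjusted p = 1.12e-12). SESN2, a stress-induced inhibitor of mTORC1 signalling that ATF4 activates, had 57.0 and 35.0 CPM in TENIPOSIDE wells and 57.1 and 43.07 CPM in NSC122819 wells, against 1.80 to 10.8 CPM (median 5.53) in DMSO wells. It rose by 2.91 ± 0.31 (adjusted p = 1.4e-13), again with no overlap between teniposide and DMSO wells. FAS, a death receptor, had 14.1 and 3.50 CPM in TENIPOSIDE wells and 5.87 and 2.08 CPM in NSC122819 wells, against 0 to 2.31 CPM (median 1.101) in DMSO wells; its log2 change of 2.44 ± 0.68 (adjusted p = 0.00456) lost the call without the TENIPOSIDE well of plate 1 (adjusted p = 0.299) or the NSC122819 well of plate 1 (0.278). BBC3, which encodes the BH3-only cell death protein PUMA, had 7.64 and 9.61 CPM and 2.67 and 6.95 CPM under the same labels, against 0 to 4.62 CPM (median 0.379) in DMSO wells, and its change of 2.17 ± 0.72 (adjusted p = 0.0212) was not called without the TENIPOSIDE well of plate 1 (0.0978) or the NSC122819 well of plate 2 (0.194). FAS and BBC3 were thus low-count genes whose calls rested on single wells.

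These 4 genes were the only ones of 22 tested damage-induced genes, out of 28 in the list, that passed in the mean, all as rises (18.2%, beside 8.97% of all genes). Low-expressed genes such as FAS and BBC3 could enter the test through the wells where they are high. The count and the median are therefore descriptions only. SESN2 is counted in the ATF4 and integrated stress response list as well. The median change of the 22 was 0.39, and that of all genes −0.02. The older quasi-likelihood method called 2 of them. MDM2, a ubiquitin ligase that is itself induced by damage in many cells, had 2.94 and 8.74 CPM in TENIPOSIDE wells and 6.41 and 0 CPM in NSC122819 wells, against 3.43 to 13.2 CPM (median 6.54) in DMSO wells, and its change of −0.72 ± 0.62 (95% interval −1.95 to 0.51) did not pass (adjusted p = 0.467). CCND1, the G1 cyclin D1, fell by 1.07 ± 0.19 on the log2 scale (adjusted p = 7.22e-06), with 492 and 701 CPM in TENIPOSIDE wells, 528 and 656 CPM in NSC122819 wells and 719.9 to 1511 CPM (median 1259) in DMSO wells. MYCN had 126 and 83.9 CPM in TENIPOSIDE wells and 57.1 and 66.0 CPM in NSC122819 wells, against 49.0 to 197 CPM (median 135) in DMSO wells; the groups overlapped and the change of −0.65 ± 0.51 did not pass (adjusted p = 0.412).

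Genes of G2 and mitosis were lower in teniposide wells. Of 34 such genes, all tested, 13 fell in the mean (38.2%, beside 9.85% of all genes) and none rose; their median change was −0.68, beside −0.02 for all genes. The genes that fell were PLK1, ECT2, CENPF, BUB1B, CCNB1, PRC1, CDC20, CCNB2, CENPE, PTTG1, AURKB, BIRC5 and NUSAP1, of which CENPF, CENPE, PRC1, ECT2, AURKB, BIRC5 and NUSAP1 serve the kinetochore, the spindle or cytokinesis. TENIPOSIDE alone gave 6 falls (3.84% of all genes fell there) and NSC122819 alone 10 (6.76%). Over the alternative settings the count for the mean ran between 6 and 16, and the 6 came from the fit without the plate. PLK1 and CCNB1 are central members of this group: the kinase PLK1 drives entry into mitosis, and cyclin B1 is the activating subunit of the mitotic kinase CDK1.

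Many G2 and mitosis promoters hold a cell cycle homology region (CHR, searched as TTTGAA) and CCAAT boxes (searched as CCAAT), both looked for on both strands; a match of one can share at most 1 base with a match of the other. The promoters of PLK1, CCNB1 and CDC20 are shown because these genes fell together; CDC20, the activator of the anaphase-promoting complex, was added after its values were seen. They are RefSeq sequences of GRCh38.p14, 250 bases before to 50 after the start, 5′ to 3′ on the + strand that all 3 genes use, at chr16:23678639-23678938, chr5:69166900-69167199 and chr1:43358731-43359030. Capitals mark each motif match on either strand, so that TTCAAA and ATTGG are the same motifs read on the other strand. The CCNB1 window holds 2 CCAAT matches and no TTTGAA match.
PLK1: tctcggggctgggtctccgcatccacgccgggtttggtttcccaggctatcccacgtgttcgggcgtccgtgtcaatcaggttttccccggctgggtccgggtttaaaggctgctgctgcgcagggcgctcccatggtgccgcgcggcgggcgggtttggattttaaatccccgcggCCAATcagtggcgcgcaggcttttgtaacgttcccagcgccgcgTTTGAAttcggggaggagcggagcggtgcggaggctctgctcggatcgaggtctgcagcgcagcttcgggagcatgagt
CCNB1: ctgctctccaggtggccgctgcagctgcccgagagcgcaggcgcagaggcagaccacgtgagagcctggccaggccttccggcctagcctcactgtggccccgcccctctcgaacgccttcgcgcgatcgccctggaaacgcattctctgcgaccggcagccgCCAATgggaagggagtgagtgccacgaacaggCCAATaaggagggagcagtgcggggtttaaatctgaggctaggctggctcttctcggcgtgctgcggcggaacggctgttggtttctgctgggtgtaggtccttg
CDC20: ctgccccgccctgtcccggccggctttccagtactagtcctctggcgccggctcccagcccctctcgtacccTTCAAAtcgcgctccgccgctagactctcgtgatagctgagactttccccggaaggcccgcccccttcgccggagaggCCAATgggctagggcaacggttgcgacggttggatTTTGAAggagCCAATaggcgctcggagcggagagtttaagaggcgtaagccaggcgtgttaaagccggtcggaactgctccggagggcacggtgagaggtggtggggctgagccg
TTTGAA was found in 18 of the 29 G2 and mitosis promoters in the RefSeq table (62.1%), beside 4212 of all 27305 promoters (15.4%). CCAAT was found in 24 of the 29 (82.8%), beside 35.7% of all. Both were present in 17 of the 29 (58.6%), beside 6.08% of all. A match describes these windows and is no evidence of binding in the wells measured.

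PLK1 had 259 and 394 CPM in the TENIPOSIDE wells and 265 and 486 CPM in the NSC122819 wells, against 584 to 729 CPM in the DMSO wells of plate 1 and 1059.7 to 1520.4 CPM in those of plate 2. Every teniposide well lay below all DMSO wells, and each plate showed the difference. PLK1 fell by 1.39 ± 0.19 on the log2 scale (adjusted p = 1.97e-09). CCNB1 had 74.7 and 35.0 CPM in TENIPOSIDE wells and 99.3 and 49.3 CPM in NSC122819 wells, against 130 to 179 CPM in DMSO wells of plate 1 and 82.1 to 113 CPM in those of plate 2. The plates had opposite orders for PLK1 and CCNB1, and within each plate the teniposide wells were below the DMSO wells for both genes. CCNB1 fell by 1.00 ± 0.17 (adjusted p = 1.73e-06), a call that was lost without the plate in the fit (0.0831). BUB1B, a spindle checkpoint kinase, fell by 1.11 ± 0.23 (adjusted p = 8.91e-05), with 55.3 and 41.9 CPM in TENIPOSIDE wells, 22.9 and 48.6 CPM in NSC122819 wells and 59.8 to 113 CPM (median 90.5) in DMSO wells. PTTG1, the anaphase inhibitor securin, fell by 0.71 ± 0.16 (adjusted p = 0.000341) and lost the call without the plate (0.129). CDC20 had 64.7 and 124.9 CPM in TENIPOSIDE wells and 79.5 and 116 CPM in NSC122819 wells, against 134 to 216 CPM (median 177) in DMSO wells, and fell by 0.90 ± 0.23 (adjusted p = 0.00222).

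TOP2A, the topoisomerase II isoform of dividing cells and a target of teniposide, had 436 and 808 CPM in the TENIPOSIDE wells and 368 and 1191 CPM in the NSC122819 wells, against 556 to 1127 CPM (median 806) in DMSO wells. Over both plates together the wells overlapped, but the plates differed. On plate 1 both teniposide wells lay below the DMSO wells (556 to 852.9 CPM). On plate 2 the TENIPOSIDE well lay within the DMSO wells (784.8 to 1126.6 CPM) and the NSC122819 well above them. The change of −0.32 ± 0.19 (95% interval −0.70 to 0.06) did not pass (adjusted p = 0.259). Without the NSC122819 well of plate 2 the change was −0.65. TOP2B, the isoform that resting cells also use, was low at 7.64 and 13.1 CPM in TENIPOSIDE wells and 6.41 and 4.86 CPM in NSC122819 wells, against 8.05 to 21.6 CPM (median 15.3) in DMSO wells, and did not pass (−0.95 ± 0.46, adjusted p = 0.138). Of 12 tested genes for topoisomerases and the removal of their adducts, 4 fell (33.3%, beside 9.85% of all genes) and 1 rose (8.33%, beside 8.97%), with a median of −0.55. TDP1, which cleaves topoisomerase I from DNA ends, fell by 1.60 ± 0.39 (adjusted p = 0.0013). ZNF451, which helps resolve trapped topoisomerase II as a SUMO ligase, rose by 0.70 ± 0.18 (adjusted p = 0.00215). It lost the call without the TENIPOSIDE well of plate 1 (0.114). TOP1 fell by 0.82 ± 0.28 (adjusted p = 0.0295), but not without any 1 of the 4 teniposide wells and not without DMSO well 4 of plate 2 (0.0692), which held 1142.9 CPM beside 482 to 761 CPM in the other DMSO wells.

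Of 18 double-strand break repair genes 3 fell in the mean (16.7%, beside 9.85% of all genes) and none rose, with a median of −0.36. XRCC5, the Ku80 subunit that binds DNA ends for end joining, had 217 and 346 CPM in TENIPOSIDE wells and 187 and 179 CPM in NSC122819 wells, against 430.5 to 862 CPM (median 674) in DMSO wells. All 4 teniposide wells were below all DMSO wells, and XRCC5 fell by 1.55 ± 0.19 (adjusted p = 3.18e-11). PRKDC, the catalytic subunit of the DNA-dependent protein kinase that Ku recruits, fell by 0.98 ± 0.19 (adjusted p = 3.32e-05). BLM, a helicase of recombination, fell by 0.93 ± 0.31 (adjusted p = 0.0215), a call that ended without the TENIPOSIDE well of plate 1 (0.139) or either NSC122819 well (0.0756 and 0.065 for plates 1 and 2). NBN, which belongs to the MRN complex that senses breaks and is counted with the topoisomerase list for its part in clearing adducts, fell by 0.86 ± 0.20 (adjusted p = 0.000443). Among 11 checkpoint genes 1 fell and 1 rose (9.09% each, near the 9.85% and 8.97% of all genes). CHEK1, the kinase downstream of ATR, fell by 0.60 ± 0.16 (adjusted p = 0.00235), and RAD9A, a subunit of the clamp that activates ATR, rose by 0.80 ± 0.23 (adjusted p = 0.00878); the other 9 did not pass. RAD9A lost its call without the TENIPOSIDE well of plate 1 (0.132) or the NSC122819 well of plate 1 (0.0856).

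Genes of adrenergic neuroblastoma identity, the sympathetic program that defines lines such as SK-N-BE(2), had the highest share of falls among the 17 lists. Of 19 genes, all tested, 13 fell and none rose in the mean (68.4%, beside 9.85% of all genes), with a median of −1.01, and for 10 of them the 4 teniposide wells lay below all 8 DMSO wells (4.01% of all genes did so). TENIPOSIDE alone gave 9 falls (3.84% of all genes fell there), and NSC122819 alone 13 falls (6.76%) and 1 rise (7.6% of all genes rose there). STMN2, a microtubule regulator of neurites, had 572 and 544 CPM in TENIPOSIDE wells and 472 and 398 CPM in NSC122819 wells, against 1275 to 2067 CPM (median 1542) in DMSO wells, and fell by 1.68 ± 0.16 (adjusted p = 2.54e-16). GAP43, a growth cone protein, fell by 1.54 ± 0.16 (adjusted p = 1.4e-13), with 618 and 774 CPM in TENIPOSIDE wells, 489 and 580.1 CPM in NSC122819 wells and 1278 to 2276 CPM (median 1844) in DMSO wells. ELAVL4, the neuronal RNA-binding protein HuD, fell by 2.40 ± 0.27 (adjusted p = 2.53e-12), and its 146 and 116 CPM in TENIPOSIDE wells and 48.0 and 98.7 CPM in NSC122819 wells were below the 301 to 657 CPM (median 552) of DMSO wells. Transcription factors of the adrenergic circuit were among the falls. HAND2 had 56.4 and 61.2 CPM in TENIPOSIDE wells and 35.2 and 27.8 CPM in NSC122819 wells, against 88.9 to 190.3 CPM (median 148) in DMSO wells, and fell by 1.77 ± 0.21 (adjusted p = 3.18e-11). GATA3 fell by 1.20 ± 0.19, while TH, which makes the catecholamine precursor, did not pass (−0.60 ± 0.31, adjusted p = 0.18). GATA3 and TH were named after their values were seen.

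The largest rises among genes that passed, had a mean of at least 30 CPM in a group and no overlap between the 4 teniposide and 8 DMSO wells (515 genes in all; wells did not overlap for 7.21% of all genes, 3.2% higher and 4.01% lower) were SESN2, CDKN1A, TTC25, SARNP, STMN4, SPATA2L, CAMK2N1, TSPYL2, SH2D3C and ATF5. STMN4, a neuronal relative of stathmin that binds tubulin dimers, had 178 and 374 CPM in TENIPOSIDE wells and 229 and 345 CPM in NSC122819 wells, against 32.4 to 78.2 CPM (median 45.1) in DMSO wells. It rose by 2.42 ± 0.18 (adjusted p = 4.46e-23), in the opposite direction to STMN2. SARNP, a protein of the mRNA export complex TREX, had 42.3 and 90.0 CPM and 56.0 and 59.7 CPM under the labels TENIPOSIDE and NSC122819, against 5.19 to 15.6 CPM (median 11.9) in DMSO wells, and rose by 2.47 ± 0.26. TSPYL2, a nucleosome assembly protein relative that restrains growth, rose by 2.30 ± 0.23, and CAMK2N1, an inhibitor of the kinase CaMKII, rose by 2.34 ± 0.29. TTC25, a protein of the ciliary dynein arm docking complex, rose by 2.62 ± 0.35, SPATA2L by 2.39 ± 0.36, SH2D3C, an adaptor of integrin signalling, by 2.14 ± 0.29, and ATF5, a transcription factor of the integrated stress response, by 2.11 ± 0.32. For each label alone the rule also named STX5, a Golgi SNARE, which rose by 2.38 ± 0.41 under TENIPOSIDE and 1.63 ± 0.45 under NSC122819, and SYT5, a synaptotagmin, which rose by 2.11 ± 0.47 and 3.07 ± 0.38 under these labels.

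The largest falls under the same conditions were PLXNA4, ADAMTS19, TENM3, DKK1, RSRC1, RBMS3, ASAP1, TBL1X, ADAM12 and ALCAM. PLXNA4, a receptor for semaphorins in axon guidance (chr7:132123340-132648688, GRCh38.p14), had 2.35 and 6.99 CPM in TENIPOSIDE wells and 4.27 and 0.695 CPM in NSC122819 wells, against 23.1 to 71.5 CPM (median 43.5) in DMSO wells, and fell by 3.69 ± 0.43 (adjusted p = 9.64e-12). TENM3, a teneurin that guides neuronal wiring (chr4:181447613-182803024), had 7.05 and 8.74 CPM in TENIPOSIDE wells and 8.54 and 2.78 CPM in NSC122819 wells, against 46.7 to 74.5 CPM (median 58.5) in DMSO wells, and fell by 3.11 ± 0.31 (adjusted p = 1.48e-14). ALCAM, an adhesion molecule of the immunoglobulin family, was the most abundant of the 10 and had 228 and 170.4 CPM in TENIPOSIDE wells and 154 and 95.9 CPM in NSC122819 wells, against 694 to 1254 CPM (median 912) in DMSO wells. It fell by 2.54 ± 0.15 (adjusted p = 2.24e-30), and the highest teniposide well was below the lowest DMSO well by a wide margin. ASAP1, an Arf GTPase-activating protein, fell by 2.72 ± 0.20, with 82.3 and 65.5 CPM in TENIPOSIDE wells, 46.4 and 41.7 CPM in NSC122819 wells and 218 to 580.1 CPM (median 387) in DMSO wells. DKK1, a secreted inhibitor of Wnt signalling, fell by 2.98 ± 0.50, and its DMSO wells ran between 81.2 and 554.8 CPM. RBMS3, an RNA-binding protein, fell by 2.79 ± 0.34, ADAM12, a metalloprotease, by 2.59 ± 0.24, TBL1X, a corepressor subunit, by 2.61 ± 0.24, ADAMTS19, a secreted protease, by 3.12 ± 0.51 and RSRC1, a splicing factor, by 2.82 ± 0.48. In single labels ADAMTS19 was not called for TENIPOSIDE without its plate 2 well (adjusted p = 0.168) or for NSC122819 without its plate 1 well (0.0569), RSRC1 was not called for TENIPOSIDE without its plate 1 well (0.0972), and DKK1 was not called for NSC122819 without its plate 1 well (0.0557).

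Genes that span long stretches of the genome fell more often than short ones, although most falls by number were in genes under 100 kb. The 10 largest rises spanned 3.82 to 65.3 kb (median 16.95 kb), the 10 largest falls 3.38 to 1360 kb (median 384 kb), and all genes had a median of 30.6 kb. Span, the distance between a gene's start and end in RefSeq GRCh38.p14, could be assigned to 12254 of the 13438 genes tested (91.2%). The median log2 change of the mean was 0.14 for 2592 genes under 10 kb, 0.13 for 3469 genes of 10 to 30 kb, −0.06 for 3881 genes of 30 to 100 kb, −0.48 for 1834 genes of 100 to 300 kb and −1.04 for 478 genes over 300 kb. The share of genes that fell was 5.56%, 5.51%, 9.48%, 22.9% and 37.2% in the same order of span. Of the 478 longest genes 178 fell and 14 rose. The median DMSO levels of the bins, 10.7, 12.3, 13, 11.7 and 8.22 CPM, did not fall steadily with span. Among genes with a mean of at least 30 CPM the medians were −0.02, −0.06, −0.22, −0.67 and −1.34, and 81 of the 102 longest genes fell (79.4%). Medians of short genes thus changed sign with that filter, and those of the longest genes did not.

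The pattern was present in each well. Relative to the DMSO wells of the same plate, genes over 300 kb with at least 30 CPM had a median log2 difference of −1.32 and −1.11 in the TENIPOSIDE wells and −1.49 and −1.37 in the NSC122819 wells, whereas single DMSO wells ran between −0.12 and 0.15. AMSACRINE wells had −0.6 and −0.51, DOXORUBICIN wells −0.93 and −1.07, DAUNORUBICIN wells −1.06 and −1.01, and Podofilox wells, at another concentration, 0 and 0.13. Both teniposide labels therefore lay below every AMSACRINE and DMSO well in this measure. It is a median over genes in each well and was given no test.

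**Figure D2:**
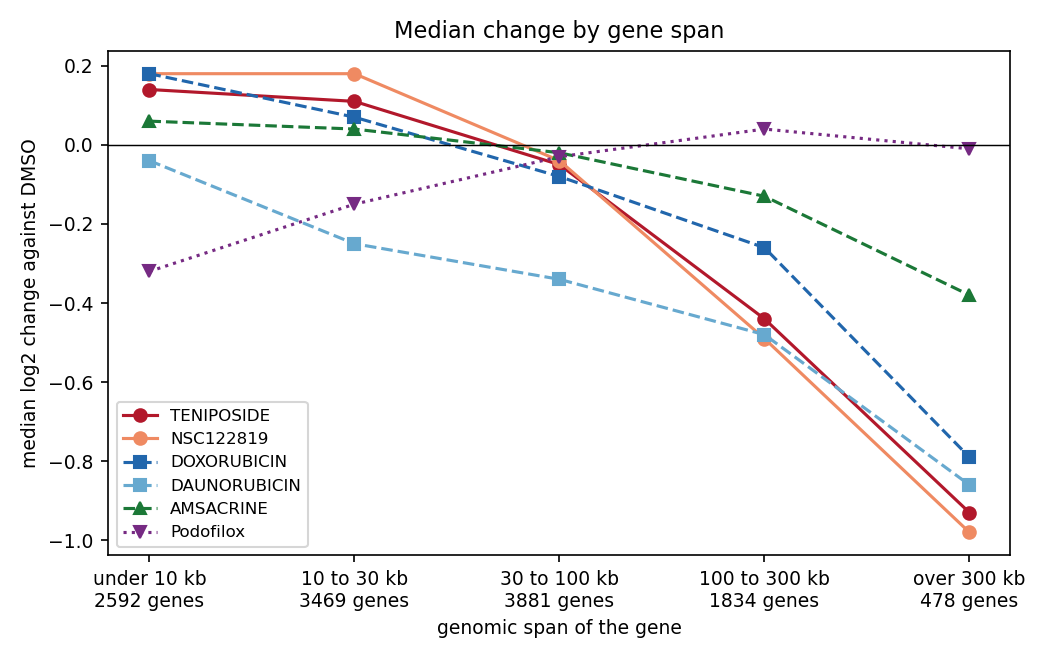
Median log2 change against DMSO (vertical axis) by gene span in 5 bins (under 10, 10 to 30, 30 to 100, 100 to 300 and over 300 kb, horizontal axis), with a line for each of TENIPOSIDE, NSC122819, DOXORUBICIN, DAUNORUBICIN, AMSACRINE and Podofilox. In the longest bin TENIPOSIDE lies at −0.93 and NSC122819 at −0.98, where Podofilox, at another labelled concentration, lies at −0.01.

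Of 14 NF-kB target and secreted inflammatory genes 7 passed the low-count filter, and 4 of these rose in the mean (57.1%, beside 8.97% of all genes); since a low-expressed gene can enter the test through the wells where it is high, that count is a description only. NFKBIA, the inhibitor that NF-kB itself induces, had 206 and 63.8 CPM in TENIPOSIDE wells and 195 and 74.3 CPM in NSC122819 wells, against 65.7 to 104 CPM in DMSO wells of plate 1 and 28 to 46.8 CPM in those of plate 2. It was above the DMSO wells of its own plate in all 4 wells and rose by 1.09 ± 0.19 (adjusted p = 2.31e-06). CCL2, a chemokine for monocytes, had 12.3 and 14.0 CPM and 9.61 and 8.34 CPM under TENIPOSIDE and NSC122819, against 0.578 to 2.94 CPM (median 1.41) in DMSO wells, and rose by 2.69 ± 0.49 (adjusted p = 7.12e-06). The noncanonical subunits RELB (4.33 ± 0.83, adjusted p = 2.18e-05) and NFKB2 (1.97 ± 0.41, adjusted p = 8.74e-05) rose as well, RELB not without the TENIPOSIDE well of plate 2 (0.0691) and NFKB2 not without the NSC122819 well of plate 1 (0.267).

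Of 14 interferon response genes 10 were tested and 4 rose in the mean (40%, beside 8.97% of all genes), IFI6, IRF7, ISG15 and IRF1. This count and the median are descriptions only, as low-expressed genes could enter the test through their high wells here too. The median of the 10 was 1.52, or 2.11 with genes at 0 in a group set to the bound that 3 counts allow. IFI6, an interferon-induced mitochondrial protein, had 76.4 and 74.3 CPM in TENIPOSIDE wells and 40.6 and 70.9 CPM in NSC122819 wells, against 12.1 to 30.6 CPM (median 16.3) in DMSO wells. The wells did not overlap, and IFI6 rose by 1.83 ± 0.19 (adjusted p = 1.71e-13). IRF7, a transcription factor of the interferon loop, rose by 2.81 ± 0.55 (adjusted p = 2.31e-05), at 9.41 and 9.61 CPM in TENIPOSIDE wells and 7.47 and 6.25 CPM in NSC122819 wells against 0 to 4.33 CPM (median 0.814) in DMSO wells. ISG15, a ubiquitin-like modifier, had at most 6.95 CPM in a teniposide well and was not called without the TENIPOSIDE well of plate 1 (0.433) or the NSC122819 well of plate 2 (0.17). IRF1 had 3.53 and 0 CPM in TENIPOSIDE wells and 5.34 and 7.64 CPM in NSC122819 wells, and without the TENIPOSIDE well of plate 1 its change turned to −0.11 (0.952). Its call was also lost without either NSC122819 well (0.0513 and 0.0821 for plates 1 and 2) and without 3 of the DMSO wells in turn (0.0533 to 0.0575).

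Of 12 tested genes of the BCL2 family, out of 15, 3 rose (25%, beside 8.97% of all genes) and none fell: BBC3, HRK and BMF, all of them BH3-only promoters of cell death and all at or under 10 CPM in every teniposide and DMSO well, so that the same limit holds for their count. HRK rose by 2.06 ± 0.54 (adjusted p = 0.00249; 0.0762 without the TENIPOSIDE well of plate 1) and BMF by 2.41 ± 0.64 (0.00293; 0.134 without the TENIPOSIDE well of plate 2). In the ATF4 and integrated stress response list, 4 of 16 genes rose (25%, beside 8.97% of all genes) and 3 fell (18.8%, beside 9.85%), with a median of 0.06. DDIT3, the stress factor CHOP, had 51.1 and 110.1 CPM in TENIPOSIDE wells and 113 and 91.7 CPM in NSC122819 wells, against 16.9 to 36.5 CPM (median 29.2) in DMSO wells, and rose by 1.77 ± 0.22 (adjusted p = 1.13e-10). ATF3 rose by 1.74 ± 0.37 (adjusted p = 0.000175, but 0.0817 without the TENIPOSIDE well of plate 2), whereas PHGDH, which starts serine synthesis and is an ATF4 target, fell by 0.48 ± 0.13 (adjusted p = 0.00418). PHGDH was not called without the NSC122819 well of plate 1 (0.0995).

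**Figure D3:**
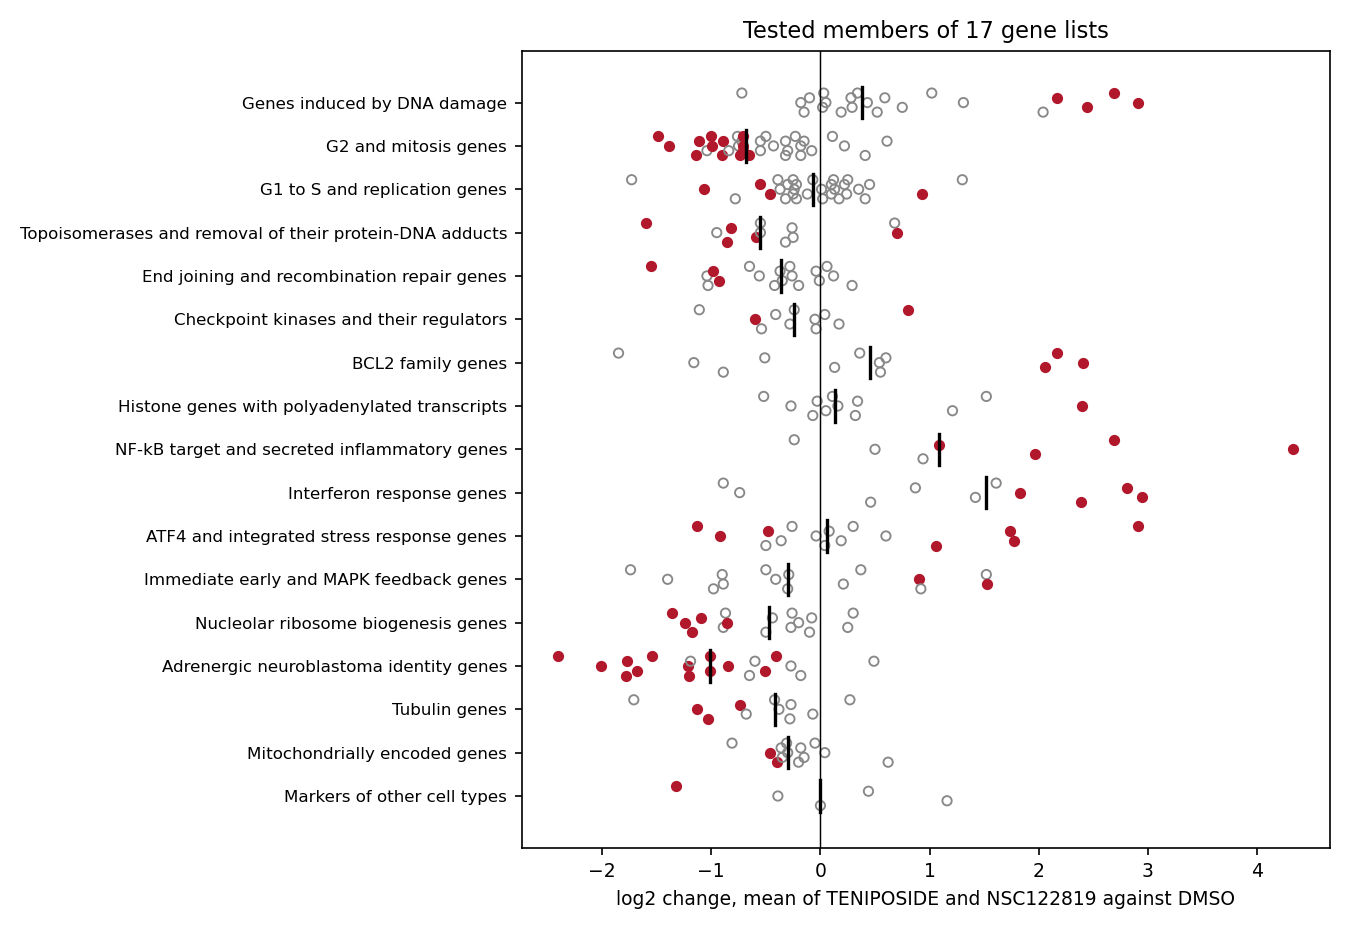
Log2 change in the mean of TENIPOSIDE and NSC122819 against DMSO (horizontal axis) of the tested members of each of the 17 gene lists (rows); each circle is 1 gene, filled where it passed the threshold and open where it did not, and the black bar is the median of the list. The median lies at −1.01 for adrenergic identity genes and at −0.68 for G2 and mitosis genes, whose filled circles all lie below 0.

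Set against each other, NSC122819 and TENIPOSIDE differed in 1 gene of 13438 at an adjusted p under 0.05 (0.00744%) with edgeR, and in 1 with DESeq2; 772 genes had an unadjusted p under 0.05. This count does not show that the labels act alike. Among 4116 genes with a mean of at least 30 CPM the 95% interval of the log2 difference had a median half-width of 0.75, and for 1934 of them (47%) it lay within −1 and 1, so that a 2-fold difference was outside it. For the remaining genes the interval reached past a 2-fold difference and so did not exclude one; over all 13438 genes 15.3% of the intervals lay within −1 and 1. The interval left out 0 for 258 of the 4116 genes (6.27%).

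The differences that were measured leaned towards larger changes under NSC122819 for the genes that fell. Among the 882 genes with at least 30 CPM that fell in the mean, the median difference of NSC122819 minus TENIPOSIDE was −0.19, 598 of them were further down under NSC122819, and 89 intervals (10.1%) left out 0. Among the 504 that rose, the median was 0.1 and 304 were further up. Both labels entered the choice of these genes with equal weight. CDKN1A differed by 0.20 ± 0.42 (95% interval −0.62 to 1.03), PLK1 by 0.17 ± 0.29 (−0.41 to 0.74) and CCNB1 by 0.43 ± 0.28 (−0.12 to 0.99), none past the threshold. ALCAM differed by −0.68 ± 0.22 (−1.13 to −0.24, adjusted p = 0.719) and TBL1X by −1.42 ± 0.44 (−2.29 to −0.55, adjusted p = 0.635), so that neither passed, although their intervals left out 0.

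The called gene was SNORA40, a box H/ACA small nucleolar RNA in an intron of TAF1D (chr11:93735110-93735236, GRCh38.p14). It had 162 and 151 CPM in NSC122819 wells, 24.7 and 55.0 CPM in TENIPOSIDE wells and 19.7 to 64.9 CPM (median 37.5) in DMSO wells. Both NSC122819 wells lay above all TENIPOSIDE and DMSO wells, and the difference between NSC122819 and TENIPOSIDE was 2.1 ± 0.39 (95% interval 1.33 to 2.87, adjusted p = 0.00428). It did not pass with the older quasi-likelihood method (0.126), with only the wells compared (0.867), without the plate in the fit (1), or without either TENIPOSIDE well (0.52 for plate 1 and 0.115 for plate 2) or the NSC122819 well of plate 1 (0.346). Its host gene TAF1D, a subunit of an RNA polymerase I factor, differed by −0.11 ± 0.24 (adjusted p = 0.98). Reads of an intronic RNA and of unspliced host RNA cannot be told apart in counts whose use of strand is not given in the sources used here. The gene with the next smallest p was RALA, a small GTPase, at 147 and 88.2 CPM in NSC122819 wells and 140.5 and 339 CPM in TENIPOSIDE wells (−1.11 ± 0.26, adjusted p = 0.157). Without the TENIPOSIDE well of plate 1 the difference in RALA was −1.75 and passed (4.03e-05).

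**Figure D4:**
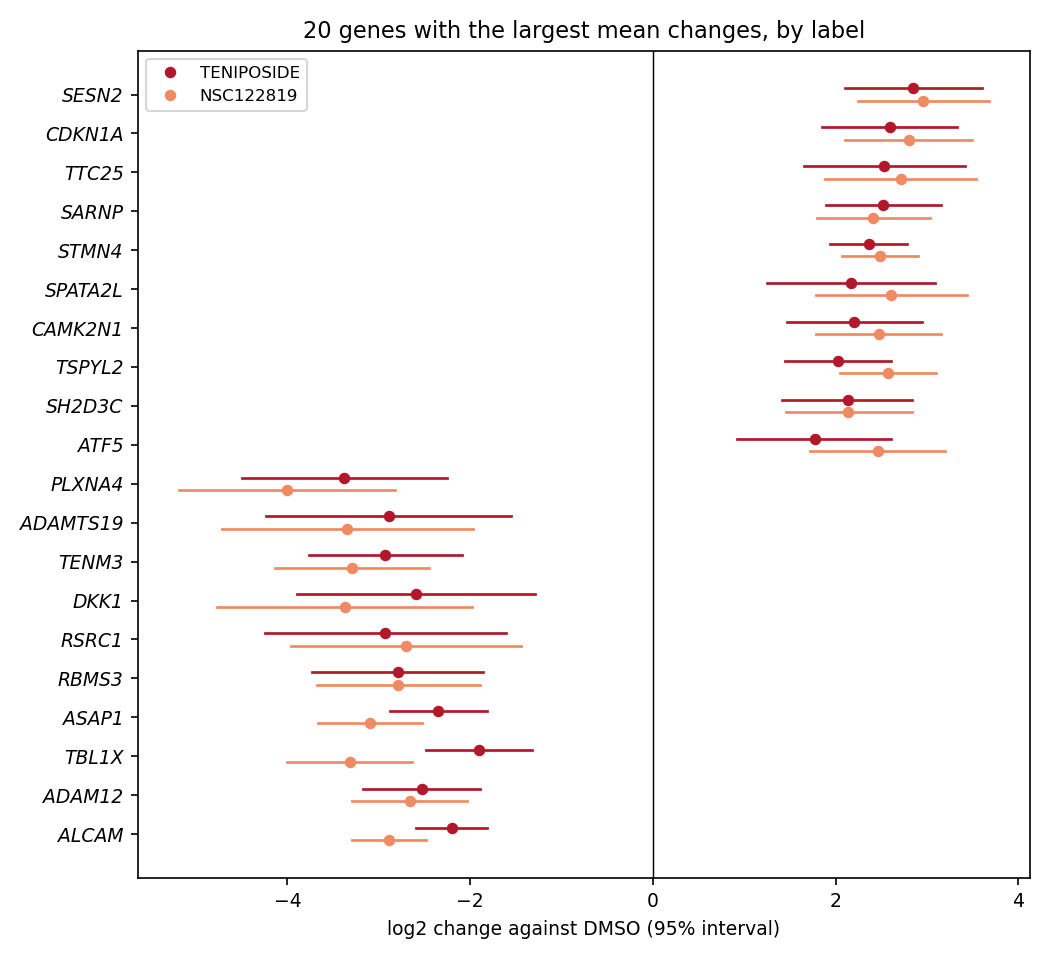
Log2 change against DMSO with its 95% interval (horizontal axis) under TENIPOSIDE and under NSC122819 for the 10 genes with the largest rises and the 10 with the largest falls of the mean (rows). Both labels share the 8 DMSO wells and the genes were chosen by their mean change, so the closeness of the points is no measure of likeness; TBL1X, at −3.32 under NSC122819 and −1.90 under TENIPOSIDE, has intervals that do not overlap.

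A comparison that shared no well used the change of each compound well against the mean of the 4 DMSO wells of its own plate, with plate 1 of one compound set against plate 2 of another, over 3730 genes with at least 30 CPM. The Pearson correlation across genes was 0.658 between TENIPOSIDE on plate 1 and NSC122819 on plate 2, and 0.624 between NSC122819 on plate 1 and TENIPOSIDE on plate 2. The 2 wells of TENIPOSIDE correlated at 0.643 with each other and those of NSC122819 at 0.657, so the 2 values between labels and the 2 values within a label were close to each other. Genes are not independent replicates, and these values are descriptions. Among the 89 other compounds the other teniposide label ranked 1 for all 4 wells by Pearson correlation; by Spearman correlation TENIPOSIDE ranked 2 for the NSC122819 well of plate 2. The median over those compounds was 0.0582 for TENIPOSIDE on plate 1 and 0.0791 for NSC122819 on plate 1. The median correlation of a compound with its own duplicate was 0.22, and 6 of 90 compounds exceeded 0.658. The next in each of the 4 wells was NSC639174, a compound known here by its code, at 0.536 and 0.595 with TENIPOSIDE and 0.603 and 0.652 with NSC122819. MITOMYCIN, a DNA crosslinker, gave 0.455 to 0.51, AMSACRINE 0.367 to 0.516, DOXORUBICIN 0.407 to 0.496, DAUNORUBICIN 0.194 to 0.303 and Podofilox −0.0331 to 0.173. NSC69187, likewise known here by its code, gave 0.408 to 0.454, within the ranges of AMSACRINE and DOXORUBICIN. The duplicates of AMSACRINE correlated at 0.315 and those of DAUNORUBICIN at 0.618; AMSACRINE thus correlated more closely with each teniposide well than its own wells did with each other.

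**Figure D5:**
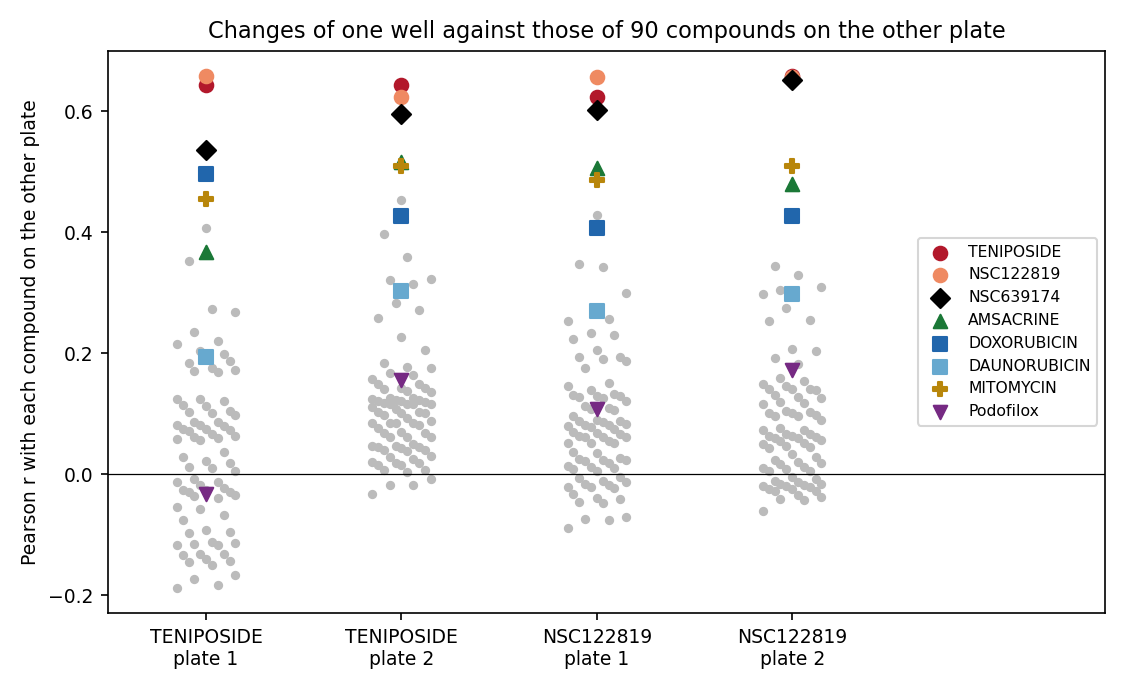
Correlation across 3730 genes between the change in each teniposide well on one plate and that of every compound on the other plate, with both teniposide labels and the comparison compounds marked. The other teniposide label lies at 0.624 to 0.658, beside 0.367 to 0.516 for AMSACRINE and −0.0331 to 0.173 for Podofilox.

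TENIPOSIDE was then set against the topoisomerase II poisons at the same labelled concentration of 3 and the same time. With NSC122819 against TENIPOSIDE this made 4 pairs of labels. Adjusted within each pair, 1 gene passed for NSC122819 against TENIPOSIDE and 11 (0.0819%) for TENIPOSIDE against AMSACRINE. There were 592 (4.41%) against DOXORUBICIN and 1634 (12.2%) against DAUNORUBICIN. With p-values adjusted over all 4 jointly the counts were 33, 80, 521 and 1065 in the same order. The joint adjustment sets 1 cut for all 4 pairs. Small p-values of the DOXORUBICIN and DAUNORUBICIN pairs make that cut looser for NSC122819 against TENIPOSIDE and for AMSACRINE. Its error rate holds over the 4 pairs together and not within a pair, so the 33 genes are not shown to separate the labels. The DAUNORUBICIN wells were shallow, at 398811 and 762359 counts.

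TENIPOSIDE against AMSACRINE gave 3 higher (0.0223%) and 8 lower genes (0.0595%), and 1057 genes had an unadjusted p under 0.05. That low count, from 2 wells against 2, does not show that TENIPOSIDE and AMSACRINE act alike. Against DMSO, AMSACRINE had 262 called genes (1.95%), where TENIPOSIDE had 1034 (7.69%). IFI6 had 76.4 and 74.3 CPM in TENIPOSIDE wells and 26.4 and 25.6 CPM in AMSACRINE wells, a difference of 1.52 ± 0.31 (adjusted p = 0.0095). STMN2 had 572 and 544 CPM in TENIPOSIDE wells and 951 and 1559.8 CPM in AMSACRINE wells (−1.18 ± 0.24, adjusted p = 0.0095). The TENIPOSIDE wells were outside the DMSO range for both genes, whereas the AMSACRINE wells were within it for IFI6 and within or below it for STMN2. AGPS, an enzyme of ether lipid synthesis, differed by −1.98 ± 0.45 (adjusted p = 0.0297), LIMCH1, an activator of nonmuscle myosin, by −1.47 ± 0.32 (0.0206), ASAP1 by −1.28 ± 0.30 (0.0444) and ALCAM by −0.97 ± 0.22 (0.0271). BCL2 was called too, but its AMSACRINE wells held 11.6 and 157 CPM beside 1.76 and 10.5 CPM in TENIPOSIDE wells, and without the AMSACRINE well of plate 2 it did not pass (0.913). None of these calls was kept without the TENIPOSIDE well of plate 1, without the plate in the fit or with only the wells compared; those settings gave 0 genes. The count was 2 without the TENIPOSIDE well of plate 2, 19 without the AMSACRINE well of plate 1 and 1 without that of plate 2. CDKN1A differed by 0.37 ± 0.42 (95% interval −0.47 to 1.21), PLK1 by 0.61 ± 0.29 (0.03 to 1.19) and CCNB1 by −0.34 ± 0.28 (−0.89 to 0.22), and none of the 3 passed.

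Against DOXORUBICIN 267 genes were higher under TENIPOSIDE (1.99%) and 325 lower (2.42%). PSMG3, a chaperone of proteasome assembly, had 159.9 and 119.7 CPM in TENIPOSIDE wells and 14.4 and 16.2 CPM in DOXORUBICIN wells (3.16 ± 0.37, adjusted p = 3.56e-10). With 72.1 to 144 CPM (median 103) in DMSO wells, the TENIPOSIDE wells were in or just above the DMSO range and the DOXORUBICIN wells below it. SH2D3C had 46.5 and 39.3 CPM in TENIPOSIDE wells and 6.83 and 3.38 CPM in DOXORUBICIN wells (3.07 ± 0.60, adjusted p = 0.000329), and STMN4 had 62.2 and 99.5 CPM in DOXORUBICIN wells, below TENIPOSIDE by the difference of 1.73 ± 0.31. In the other direction WAS, an actin regulator of blood cells, had 4.12 and 0.874 CPM in TENIPOSIDE wells and 53.8 and 78.5 CPM in DOXORUBICIN wells (−4.67 ± 0.64, adjusted p = 2.94e-08), beside 0 to 4.42 CPM (median 1.05) in DMSO wells. CCL2 was lower by 2.06 ± 0.49 under TENIPOSIDE (adjusted p = 0.00364), with 12.3 and 14.0 CPM of CCL2 in TENIPOSIDE wells and 69.8 and 39.9 CPM in DOXORUBICIN wells. None of CDKN1A, PLK1 and CCNB1 passed: CDKN1A differed by 0.48 ± 0.44 (95% interval −0.40 to 1.36), PLK1 by −0.25 ± 0.29 (−0.83 to 0.32) and CCNB1 by 0.13 ± 0.29 (−0.45 to 0.72). The count ran between 137 and 424 when single wells were left out: 160 without the TENIPOSIDE well of plate 1, 172 without that of plate 2, and 137 without the DOXORUBICIN well of plate 2. The other genes named by size were higher under TENIPOSIDE in GPSM1, a regulator of G proteins (3.13 ± 0.61), LRRC4B, a synaptic adhesion protein (3.07 ± 0.66), and SNORA40 (2.93 ± 0.61), and lower in UPK2, a uroplakin (−3.63 ± 0.68), EPB41L2, a membrane skeleton protein (−3.29 ± 0.58), and NBEAL2, a protein of platelet granules (−2.74 ± 0.86). Without the DOXORUBICIN well of plate 2 the adjusted p was 0.0739 for GPSM1, 0.134 for SNORA40 and 0.061 for UPK2, and NBEAL2 lost its call without any 1 of the 4 wells (0.0603 to 0.494).

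Against DAUNORUBICIN 792 genes were higher under TENIPOSIDE (5.89%) and 842 lower (6.27%). CCNB1 had 74.7 and 35.0 CPM in TENIPOSIDE wells and 28.4 and 4.88 CPM in DAUNORUBICIN wells (1.61 ± 0.41, adjusted p = 0.00356), so both wells of each compound were below DMSO on their plate and the DAUNORUBICIN wells lowest. TRIM56, a ubiquitin ligase of antiviral defence, had 85.2 and 109 CPM in TENIPOSIDE wells and 4.48 and 0 CPM in DAUNORUBICIN wells (5.05 ± 0.75, adjusted p = 1.79e-07). STMN4 had 178 and 374 CPM in TENIPOSIDE wells and 34.3 and 46.4 CPM in DAUNORUBICIN wells, the DAUNORUBICIN wells being within the range of DMSO (2.69 ± 0.38, adjusted p = 3.39e-08). DDIT3 had 51.1 and 110.1 CPM in TENIPOSIDE wells and 284 and 208 CPM in DAUNORUBICIN wells (−1.74 ± 0.35, adjusted p = 0.000159). Both compounds were above DMSO for DDIT3, TENIPOSIDE less so. WAS was lower under TENIPOSIDE by 4.86 ± 0.68, as it was against DOXORUBICIN, and ALCAM by 1.36 ± 0.22. Several genes had no count in a group, and their folds were bounded with 3 counts over the group as the floor. LRRC4B was at least 16.8-fold higher under TENIPOSIDE and PHLDB1 at least 11.9-fold. FOSB, an immediate early transcription factor, was at least 35.1-fold lower than under DAUNORUBICIN, and PPEF2 at least 37.8-fold. ZSCAN10 was at least 33.4-fold lower and CFAP43 at least 29.9-fold. FOSB and CFAP43 were each detected in 1 DMSO well, at 1.202 and 1.517 CPM, so their folds show no fall from DMSO under TENIPOSIDE. Low-expressed genes could enter the test through the wells where they are high, so these folds are descriptions only. APOBEC3C, a cytidine deaminase, was higher under TENIPOSIDE by 5.60 ± 1.11 and DUS3L, a tRNA-modifying enzyme, by 5.18 ± 1.38. Without the DAUNORUBICIN well of plate 1 the adjusted p was 0.0686 for PHLDB1, 0.147 for DUS3L and 0.495 for PPEF2; DUS3L was also lost without that of plate 2 (0.0542), and DUS3L (0.0971) and PPEF2 (0.178) without the TENIPOSIDE well of plate 1. The calls of FOSB, PPEF2, ZSCAN10 and CFAP43 ended with spike-in status as a further term. SEPT4 had 0 and 1.75 CPM in TENIPOSIDE wells and 82.1 and 39.1 CPM in DAUNORUBICIN wells. CDKN1A (0.82 ± 0.56, 95% interval −0.29 to 1.93) and PLK1 (−0.17 ± 0.30, −0.77 to 0.42) did not pass. The count was 547 without the DAUNORUBICIN well of plate 1 and 1013 without that of plate 2, and 801 and 938 without the TENIPOSIDE wells of plates 1 and 2.

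Beside DMSO, which all of these compounds share as control, falls were counted among the 34 G2 and mitosis genes. They numbered 6 for TENIPOSIDE (3.84% of all genes fell there), 10 for NSC122819 (6.76%), 5 for AMSACRINE (0.737%), 10 for DOXORUBICIN (8.92%) and 17 for DAUNORUBICIN (10.9%). Falls among the 19 adrenergic genes numbered 9, 13, 3, 10 and 6 in the same order. Genes over 300 kb had a median change of −0.93 for TENIPOSIDE, −0.98 for NSC122819, −0.38 for AMSACRINE, −0.79 for DOXORUBICIN and −0.86 for DAUNORUBICIN. These are each compound's own values, side by side.

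Podofilox, which is podophyllotoxin and lacks the glycoside of teniposide, was at the labelled concentration 2, so its values stand beside those of TENIPOSIDE at 3 with no comparison between them. CDKN1A had 34.1 and 64.7 CPM in TENIPOSIDE wells and 145 and 233 CPM in Podofilox wells. PLK1 had 259 and 394 CPM in TENIPOSIDE wells and 1119 and 2046 CPM in Podofilox wells, and CCNB1 had 74.7 and 35.0 CPM and 223 and 121 CPM in these wells. Among the 34 G2 and mitosis genes none rose and 6 fell for TENIPOSIDE against DMSO (3.85% of all genes rose and 3.84% fell there). For Podofilox against DMSO 8 rose and none fell (4.26% of all genes rose and 2.7% fell there). Of the 16 ATF4 genes 2 rose for TENIPOSIDE and 13 for Podofilox. SESN2 had 233 and 93.0 CPM in Podofilox wells.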

How the data were processed

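PLATE-Seq libraries of the first experiment were used. The authors deposited whole-number read counts per gene symbol, named STAR and GRCh38 per the submitters' processing notes, and the counter, annotation and strand use are not given in the sources used here; no collapse of molecular identifiers is stated, so errors take each read as counted. The table holds 44267 genes and 92 spike-in sequences, which were kept out of the tests. The replicate numbers in the labels were read as the duplicate plates.

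Counts of all libraries of the first experiment (92 groups) were fitted together by edgeR 4.0.16 (limma 3.58.1, R 4.3.3): filterByExpr with a minimum count of 10 (13438 genes kept), trimmed means of M values, glmQLFit with bias-adjusted deviances (common dispersion 0.0517), plate as block, and glmQLFTest, two-sided, with Benjamini-Hochberg adjustment and a threshold of 0.05. Groups of 2 wells take their spread from all groups. Levels are CPM on scaled library sizes, not per gene length, so they are compared between groups for a gene and not between genes; log2 CPM for profiles used a prior count of 2. DESeq2 1.42.0 was an alternative. The wells are separate wells of 1 line, so p-values measure the spread between wells, which may be technical.

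Genes named are the 10 largest rises and falls of the mean (5 for each label alone and for each pair of compounds) among genes past the threshold with no overlap between wells and at least 30 CPM in a group, up to 4 members of each list with the smallest p, and CDKN1A, PLK1, CCNB1, TOP2A, TOP2B, MYCN, MDM2 and CCND1; some genes that the rule names are not reported here, and others are said to be chosen after their values were seen. The members and the 17 gene lists (300 genes, all in the table, 261 tested) were chosen with earlier results of these data known, so list counts stand beside those of all genes and have no test. Spans and promoters are RefSeq GRCh38.p14, the build series of the files, matched by symbol.

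Same-numbered wells deviated together: the plate difference of a compound correlated with that of DMSO at a median of 0.688 over 90 compounds (lowest 0.204), which is why the plate is a block. No pair of wells compared held identical values. The pairs were TENIPOSIDE and NSC122819 wells of the same label or the same plate, and DMSO wells of the same plate. On simulated counts for 13438 genes with 200 changed, 2 wells against 8 as for TENIPOSIDE against DMSO gave 86 calls with 12 false (14%) and found 96.7% of 4-fold and 50% of 2-fold changes in genes of at least 30 CPM. For NSC122819 against TENIPOSIDE the numbers were 46 calls, 0 false, 90% and 12.5%, and for the mean of both labels 110 calls, 7 false (6.36%), 100% and 70%.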

Additional observations from a re-analysis of the deposited data

Results flagged for a closer look

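In 11 of the 98 gene groups of 8 DMSO wells that were examined, 1 well stood apart from the others by more than Dixon's limit. Chance exceeds that limit in about 1 in 20 groups of normally distributed values, a rate that does not hold for low counts. A gene detected in only 1 of the 8 wells exceeds it by construction. The high wells were ADAMTS19 at 57.46 CPM (next 37), DKK1 at 554.8 CPM (next 290.2), LRRC4B at 31.22 CPM (next 20.11), TOP1 at 1142.9 CPM (next 760.5), NFKB2 at 9.25 CPM (next 5.27), IRF7 at 4.325 CPM (next 1.207) and RELB at 1.202 CPM (next 0.4904). FOSB at 1.202 CPM, CFAP43 at 1.517 CPM and ISG15 at 2.452 CPM were detected in 1 DMSO well and at 0 in the other 7, and UPK2 was at 0 in 1 well and at 1.896 CPM or more in the others. TOP1, NFKB2 and LRRC4B were high in the same well, well 4 of plate 2, and FOSB, RELB and UPK2 stood apart in well 1 of plate 2. Between the labels, SNORA40 differed by 2.1 on the log2 scale for NSC122819 against TENIPOSIDE, the only difference past the threshold there.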

How the results depend on the processing

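Plate as a block decided many counts. With no replicate block 419 genes passed for TENIPOSIDE against DMSO, 966 for NSC122819 against DMSO, 1428 for their mean, 0 for NSC122819 against TENIPOSIDE, 0 for TENIPOSIDE against AMSACRINE, 137 against DOXORUBICIN and 965 against DAUNORUBICIN, and PLK1 lost its call for TENIPOSIDE (0.122) and NSC122819 (0.132) alone. Leaving out single wells gave 304 to 1013 genes for TENIPOSIDE against DMSO, 843 to 1883 for NSC122819, 1578 to 2464 for the mean, 0 to 5 for NSC122819 against TENIPOSIDE, 0 to 19 for TENIPOSIDE against AMSACRINE, 137 to 424 against DOXORUBICIN and 547 to 1013 against DAUNORUBICIN. With only the wells of the compared groups the counts were 0 for NSC122819 against TENIPOSIDE and 0, 338 and 429 for TENIPOSIDE against AMSACRINE, DOXORUBICIN and DAUNORUBICIN. The older quasi-likelihood method gave 0 for NSC122819 against TENIPOSIDE and 380 for TENIPOSIDE against DOXORUBICIN, DESeq2 gave 33 against AMSACRINE, and no filter on low counts gave 389 against DOXORUBICIN. Adjusted over the 4 pairs jointly, 33 passed for NSC122819 against TENIPOSIDE, 80 against AMSACRINE and 1065 against DAUNORUBICIN. That error rate holds over the 4 pairs together and not within a pair. Chosen after seeing the data, spike-in status as a further term gave 2 against AMSACRINE and 294 against DOXORUBICIN, and only DMSO wells of the same spike-in status gave 971 for NSC122819. The cause of these shifts was not tested, except that fewer wells and a joint cut shared by 4 pairs follow from how these settings are built.

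The correlation of TENIPOSIDE on plate 1 with NSC122819 on plate 2 was 0.576 over genes of at least 10 CPM, 0.724 over genes of at least 100 CPM and 0.62 as Spearman's, and that of NSC122819 on plate 1 with TENIPOSIDE on plate 2 was 0.536 over genes of at least 10 CPM. The median change of genes under 10 kb was −0.02, and that of genes over 300 kb −1.34, over genes of at least 30 CPM. With single wells left out, IRF1 in the mean ran between −0.11, without TENIPOSIDE replicate 1, and 2.99. Scaling by relative log expression moved the median of all genes for the mean to 0.12, beside −0.02 with trimmed means, for NSC122819 to 0.18, beside 0.02, and for TENIPOSIDE against DAUNORUBICIN to −0.05, beside 0.14, so small changes should be read against those shifts. Over 148 pairs of a named gene and a comparison, 2424 values kept their direction and call, 183 kept the direction and lost the call, 3 gained it and 1 reversed. Depth limits low genes: the half-width of the interval of NSC122819 against TENIPOSIDE had a median of 1.31 over all genes and 0.75 over genes of at least 30 CPM.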

Other observations

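Other gene groups had values that belong to no comparison above. Of 16 nucleolar genes for ribosome biogenesis 5 fell in the mean of TENIPOSIDE and NSC122819 against DMSO (31.2%, beside 9.85% of all genes) and none rose, with a median of −0.47. DKC1, the pseudouridine synthase that box H/ACA RNAs guide, fell by 1.24 ± 0.21 on the log2 scale (adjusted p = 1.03e-06), NCL, the nucleolar protein nucleolin, by 1.18 ± 0.24 (adjusted p = 0.000106), NPM1, nucleophosmin, by 1.36 ± 0.29 (adjusted p = 0.000137), and BOP1, a factor for the large ribosomal subunit, by 1.09 ± 0.31 (adjusted p = 0.00603). Of 11 tested tubulin genes 3 fell (27.3%, beside 9.85% of all genes) and none rose: TUBB, with 764 and 624.7 CPM in TENIPOSIDE wells, 814 and 457 CPM in NSC122819 wells and 1029 to 1964 CPM in DMSO wells, fell by 1.13 ± 0.16 (adjusted p = 2.32e-08), TUBA1A by 1.03 ± 0.19 and TUBA1B by 0.74 ± 0.19. TUBB lost its call without the plate in the fit (0.0854) and BOP1 without the TENIPOSIDE well of plate 1 (0.0922).

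Of 31 tested genes for G1, S phase and replication 3 fell and 1 rose, with a median of −0.07; the shares of 9.68% and 3.23% were near and below the 9.85% and 8.97% of all genes. CDT1, which loads the replicative helicase, rose by 0.93 ± 0.19 (adjusted p = 9.95e-05), and the helicase subunits MCM3 and MCM7 fell by 0.55 ± 0.13 and 0.46 ± 0.16. Of 15 tested immediate early genes JUNB rose by 1.53 ± 0.33 and JUND by 0.90 ± 0.20 (13.3% of the list, beside 8.97% of all genes), and the median of the list was −0.3, or 0.19 with genes at 0 in a group set to their bound, so its sign depended on that choice. JUNB was not called without the TENIPOSIDE well of plate 1 (0.126). Among 12 tested histone genes 1 rose (8.33%, near the 8.97% of all genes): HIST1H4H rose by 2.40 ± 0.54 (adjusted p = 0.00037), with at most 18.1 CPM in a well. Of 13 mitochondrially encoded genes 2 fell (15.4%, beside 9.85% of all genes): MT-ND4 fell by 0.46 ± 0.13 and MT-ND1 by 0.40 ± 0.13, and of 5 tested markers of other cell types 1 fell (20%): DCN, a fibroblast proteoglycan, fell by 1.32 ± 0.48, with 2.35 and 0.874 CPM in TENIPOSIDE wells, 8.01 and 6.25 CPM in NSC122819 wells and 4.39 to 15.3 CPM in DMSO wells. Without the TENIPOSIDE well of plate 1 the calls of MCM7 (0.101), MT-ND4 (0.0597), MT-ND1 (0.0537) and DCN (0.165) were lost; MT-ND4 was lost too without the NSC122819 well of plate 1 (0.127), and MCM7, MT-ND1 and DCN without the other TENIPOSIDE well (0.0967, 0.0984 and 0.124) and without the NSC122819 well of plate 2 (0.255, 0.19 and 0.0666).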
